A study of Saccharomyces cerevisiae with 8 samples.

Results

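Primer extension stops in 27SB-preLSUs, nuclear precursors of the large ribosomal subunit (LSU), were described for particles that carry micrococcal nuclease (MNase) fused to the ribosomal protein rpL5, in comparison with particles without MNase. The members are all nucleotides of 5.8S rRNA, the internal transcribed spacer 2 (ITS2) and 25S rRNA in the table for Noc3-TAP purifications, 3786 of its 10000 rows, in 2 of the 8 libraries of the series. The MNase-rpL5 strain Y2664 lacks the chromosomal gene of rpL5 (YPL131w::kanMX4) and expresses MNase-HA-rpL5 from a plasmid under the RPS28 promoter, with chromosomal NOC3-TAP. The strain without MNase, Y2601, carries NOC3-TAP in BY4741, has its own rpL5 and expresses no MNase. Both have the genetic background S288c and were grown in YPD in cultures of 6 liters, and both purified fractions received calcium. Strains with MNase-rpL27 and MNase-rpL35 that also express Noc3-TAP, and the same 4 conditions purified as later 25S-preLSUs via Lsg1-TAP, serve for comparison. Each condition is 1 library of 1 strain, so fusion, strain, culture and library cannot be told apart, no difference could be tested, and no p-value is given.

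The large subunit is assembled from a long precursor transcript, in which ITS2 separates 5.8S rRNA from 25S rRNA until late cleavage and trimming remove it. RpL5 (uL18) binds together with rpL11 and 5S rRNA, and this particle forms the central protuberance, which is turned during nuclear maturation. MNase needs calcium and cuts accessible, mostly unpaired RNA near the protein to which it is tethered, so a cut leaves a new 5’ end where reverse transcriptase runs off. Reverse transcriptase also stops at natural 5’ ends, at methyl groups on the pairing face of a base and, less completely, beside 2’-O-methylated riboses.

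The termination to coverage ratio (TCR) is the share of cDNA molecules reaching a nucleotide that terminate at it, and values below are percentages for a nucleotide with its direct neighbours unless a single nucleotide is named. The authors' noise estimate for 27SB-preLSUs had a median of 1.17% over the 3786 nucleotides, and was higher in 5.8S rRNA, with 3.56%, than in ITS2, with 1.54%, and 25S rRNA, with 1.07%. Coverage is not listed, which leaves the depth unknown, and no interval can be given. All 4 libraries are listed at 0 from nucleotide 3256 to 3396, the last 141 nucleotides of 25S rRNA, so nothing can be read there. The TCR exceeded the noise at 16.5% of nucleotides with MNase-rpL5, at 22.8% with MNase-rpL27, at 16.8% with MNase-rpL35 and at 22.6% for no MNase. MNase-rpL5 thus had fewer nucleotides above noise than particles without nuclease, and shared this lower share with MNase-rpL35. Because neighbouring values overlap, 1 stop can raise up to 3 of them, so these shares do not count stops. The noise estimate is the highest TCR near a nucleotide in the authors' simulated datasets, not a value combined over neighbours. On chromosome XII of R64, 25S rRNA (RDN25-1) runs from 451786 to 455181 and 5.8S rRNA (RDN58-1) from 455414 to 455571 in the first annotated repeat, on the reverse strand.

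Stops that need no MNase were present in both libraries and are given as the highest window within 2 nucleotides. At the 5’ end of 5.8S rRNA the TCR was 74.7% with MNase-rpL5 and 64.2% without MNase. The 1-methyladenosines m1A645 and m1A2142 of 25S rRNA gave 99.4% and 99.03% with MNase-rpL5, against 98.95% and 96.6% without MNase. At the 3-methyluridine m3U2634, a modified base close to the main rpL5 cut, MNase-rpL5 gave 92.9% and the particles without MNase 65.95%. This difference of 26.98 percentage points was the largest at the 6 stops of this kind, and gained stops next to these nucleotides are named as such below.

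Most high stops were shared by both libraries. Of 3758 nucleotides more than 2 nucleotides away from stops that need no MNase, 76 had a TCR of at least 10% with MNase-rpL5. At 52 of the 76 the value lay within a factor of 2 of the library without MNase, at 14 it was more than 3 times higher, and at 6 it was less than 0.5 times. The stop around nucleotide 110 of 5.8S rRNA, with 50.6% against 35.3% without MNase, and that around nucleotide 440 of 25S rRNA, with 32.1% against 27.4%, are examples of shared stops chosen after their values were seen. The stops below were therefore read against the library without MNase.

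**Figure D1:**
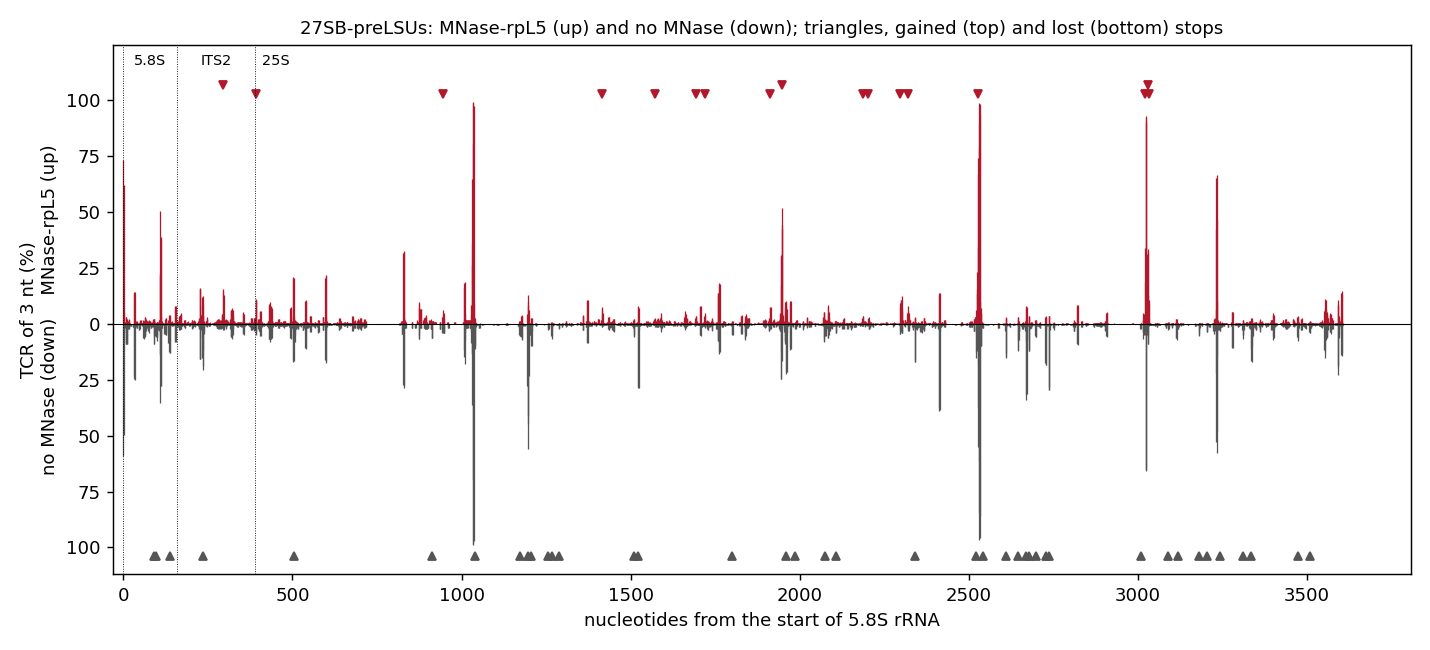
TCR of 3 nucleotides in percent (vertical axis) along 5.8S rRNA, ITS2 and 25S rRNA of 27SB-preLSUs (horizontal axis, nucleotides from the start of 5.8S rRNA), upward for MNase-rpL5 and downward for no MNase. Triangles at the top mark the 3 strong (upper row) and 14 weaker gained stops, triangles at the bottom the 40 lost stops, which lie mostly in 25S rRNA.

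Strong rpL5-dependent stops were found at 3 sites, 1 in ITS2 and 2 in 25S rRNA. They reached 15% and exceeded both the noise and the library without MNase more than 5 times, as did 0.106% of the nucleotides examined. Only the site at 2640, in the loop of helix 81 in domain V of 25S rRNA, was preferred by MNase-rpL5, with more than 2 times the TCR of the next fusion. The other two were higher with MNase-rpL35 than with MNase-rpL5.

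Nucleotide 2640 of 25S rRNA (chromosome XII, 452542) was higher with MNase-rpL5 than in any other library of 27SB-preLSUs. The window centred on 2639 had a TCR of 31.1% with MNase-rpL5, 5.63% with MNase-rpL27, 2.97% with MNase-rpL35 and 5.11% for no MNase, 6.08 times the last, with a noise estimate of 0.892%. As a single nucleotide, 2640 had 30.3% with MNase-rpL5, against 4.26% with MNase-rpL27, 2.30% with MNase-rpL35 and 4.04% for no MNase. Its 3’ neighbour 2641 ran the other way, with 3.01% with MNase-rpL5 and 4.50% without MNase. This neighbour lies directly 3’ of the 2’-O-methylated A2640. Whether the methyl group accounts for the stop at 2641 was not tested. The window centred on 2640 includes both nucleotides and was 32.8% with MNase-rpL5 against 9.0% without MNase, a ratio of 3.65. The strong call at 2640 ended when positions within 5 or 10 nucleotides of stops that need no MNase were left out, since m3U2634 lies close by, and with 2 nucleotides on either side or at 10 times the library without MNase.

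A second rpL5-dependent stop lay 3 nucleotides further on, at 2643 (452539). It had 10.6% with MNase-rpL5, 1.28% with MNase-rpL27, 0.829% with MNase-rpL35 and 1.02% for no MNase, with a noise estimate of 0.897%. It missed only the minimum of 15% for strong sites, and its preference for MNase-rpL5, 8.34 times the next fusion, was the largest of all 17 gained stops. In 25S-preLSUs neither stop stood out with MNase-rpL5, since the window centred on 2639 had 0.815% against 0.379% without MNase, and 2643 had 0.469% against 0.424%.

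On the 5’ side of this loop, single nucleotides beside m3U2634 were also higher with MNase-rpL5. At 2633 the TCR was 15.5% with MNase-rpL5, 3.81% with MNase-rpL27, 6.43% with MNase-rpL35 and 1.26% for no MNase. At 2634 it was 20.3%, 4.84% and 16.2% with MNase-rpL5, MNase-rpL27 and MNase-rpL35, against 2.85% without MNase. These nucleotides lie within 2 of a stop that needs no MNase, so they were not called. The stop at the methylated base itself, at single nucleotide 2635, was likewise higher with MNase-rpL5 (89.5%) and MNase-rpL35 (82.6%) than with MNase-rpL27 (57.5%) and without nuclease (63.9%). Whether the elevated neighbours are part of that stop was not tested. The weaker gained stop at 2632, centred on 2631, had 5.12% with MNase-rpL5, 2.20% with MNase-rpL27, 1.72% with MNase-rpL35 and 0.847% for no MNase. Its highest nucleotide, 2632, lies 2 from m3U2634. As a single nucleotide, 2632 had 2.04% with MNase-rpL5 and 2.20% with MNase-rpL27, so MNase-rpL5 was preferred only over the window.

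**Figure D2:**
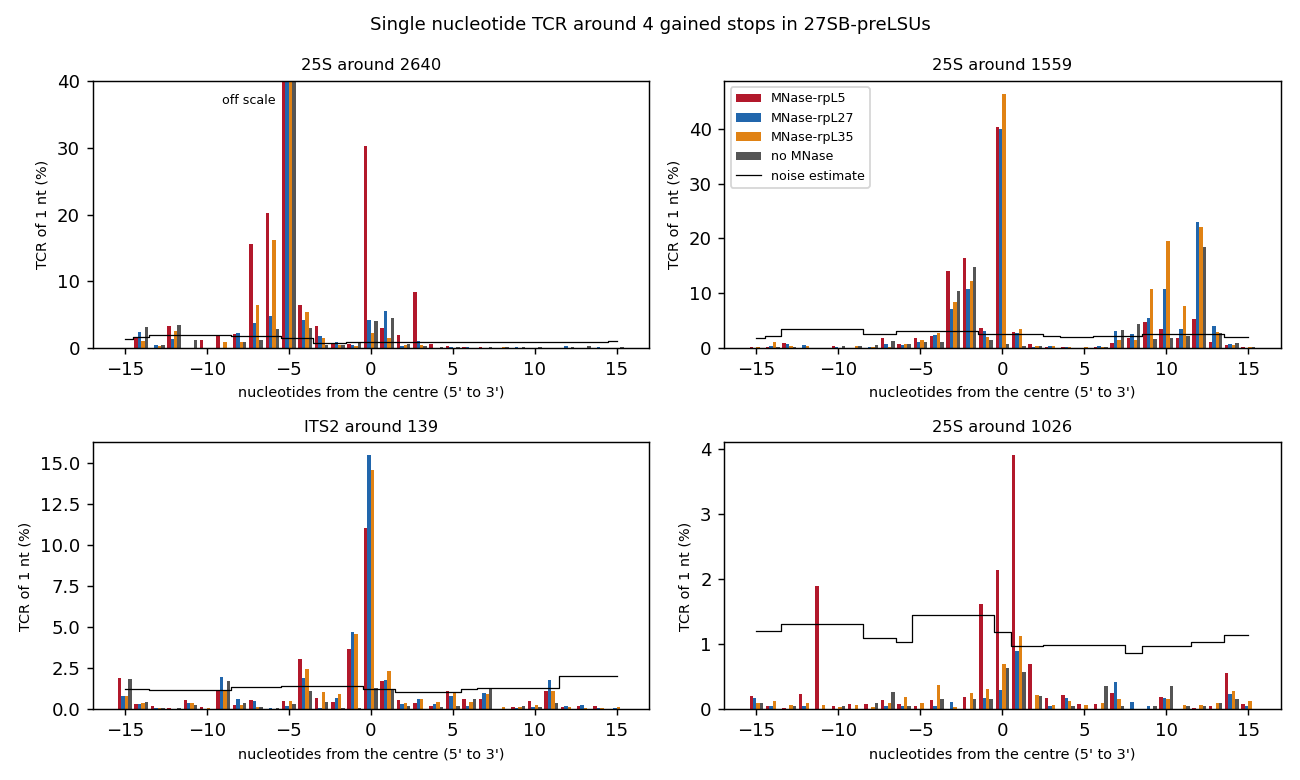
Single nucleotide TCR in percent (vertical axes) of MNase-rpL5, MNase-rpL27, MNase-rpL35 and no MNase within 15 nucleotides of 4 gained stops in 27SB-preLSUs (horizontal axes, nucleotides from the centre), with the noise estimate as a line and the stop beside m3U2634 cut off at 40%. Around 2640 and 1026 the MNase-rpL5 bars stand above the other fusions, while at 1559 and ITS2 139 all 3 fusions stand above no MNase.

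The highest rpL5-dependent stop was nucleotide 1559 of 25S rRNA (453623), in domain III. The TCR was 44.2% with MNase-rpL5, 43.4% with MNase-rpL27, 49.4% with MNase-rpL35 and 2.47% for no MNase, and the noise estimate was 2.58%. MNase-rpL5 was 17.9 times the library without MNase and 0.896 times the highest fusion, so the site was shared by all 3 fusions. Directly 5’ of it, nucleotides 1556 and 1557 gave 14.0% and 16.5% with MNase-rpL5, against 10.3% and 14.8% without MNase. The window centred on 1558 includes the second of them and was 52.04% with MNase-rpL5 against 16.6% without MNase, which is why the call rests on 1559. In 25S-preLSUs the site had 15.7% with MNase-rpL5 and 1.29% without MNase.

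Nucleotide 139 of ITS2 (455275), close to the C2 processing site, was the third strong stop. Its TCR was 15.8% with MNase-rpL5, 20.9% with MNase-rpL27, 20.4% with MNase-rpL35 and 2.59% for no MNase. MNase-rpL5 was 0.759 times the highest fusion and the lowest of the 3. It stood just above the minimum of 15%, and the window centred on 138, with 14.7% against 1.48% without MNase, just below it. In ITS2 no further stop was gained with MNase-rpL5, and in 5.8S rRNA none was.

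With a lower minimum of 2%, at more than 2 times the noise and more than 3 times no MNase, 14 weaker stops were gained with MNase-rpL5, all in 25S rRNA. Together with the strong sites they come from 0.958% of the nucleotides examined, in 17 sites. The same criteria gave 17 sites, from 0.931% of nucleotides, with MNase-rpL27 and 21 sites, from 1.28%, with MNase-rpL35. The number of gained stops with MNase-rpL5 thus lies at or below that with the other fusions. Of the 17 gained stops, 6 were preferred by MNase-rpL5, and at 8 MNase-rpL35 and at 6 MNase-rpL27 also exceeded 3 times the library without MNase. The same library without MNase, low at these stops by the rule, enters each of these comparisons. The median TCR of the 14 weaker stops with MNase-rpL5 was 5.62%.

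The weaker stops preferred by MNase-rpL5 were 2643 and 2632, given above, and 1027, 1330 and 1524. For 2632 this holds for the window but not for the named nucleotide. Nucleotide 1027 (454155) lies downstream of G1001 in the region of helix 38, the long stem that reaches towards the central protuberance. The window centred on 1026 had 7.51% with MNase-rpL5, 1.37% with MNase-rpL27, 2.11% with MNase-rpL35 and 1.36% for no MNase, with a noise estimate of 1.19%. The stop was spread over 3 nucleotides, with single values of 1.63% at 1025, 2.15% at 1026 and 3.91% at 1027 with MNase-rpL5, against 0.157%, 0.631% and 0.577% without MNase. G1001 itself had 0.558% with MNase-rpL5 and 0.213% without MNase, both below the noise estimate of 1.11%. In 25S-preLSUs, by contrast, G1001 had 45.6% with MNase-rpL5 and 0.477% without MNase. A smaller stop at 1015, named after its values were seen, had 2.19% with MNase-rpL5, 0.0593% with MNase-rpL27, 0.189% with MNase-rpL35 and 0.0526% for no MNase. It exceeded its noise estimate of 1.31%, but by less than the 2 times that a weaker stop needs. In 25S-preLSUs the window at 1026 had 5.11% with MNase-rpL5 and 1.99% without MNase. For mature ribosomes, the paper cites earlier mapping of major MNase-rpL5 cuts in helix 38 at 1014 and 1026.

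Nucleotide 1524 (453658) in domain III had 7.70% with MNase-rpL5, 2.03% with MNase-rpL27, 2.18% with MNase-rpL35 and 2.20% for no MNase, so that the other fusions stayed at the level without nuclease. In 25S-preLSUs its direction against the library without MNase was the opposite, with 8.15% with MNase-rpL5 and 16.3% without MNase. MNase-rpL27 had 3.63% and MNase-rpL35 3.16% there, so all fusions were lower than no MNase and MNase-rpL5 was again the highest fusion. Nucleotide 1330 (453852) had 3.99% with MNase-rpL5, 1.36% with MNase-rpL27, 1.69% with MNase-rpL35 and 1.18% for no MNase. It too was lower with MNase-rpL5 in 25S-preLSUs, with 2.45% with MNase-rpL5 and 6.77% without MNase. There MNase-rpL27 had 3.41% and MNase-rpL35 6.89%, so MNase-rpL5 was the lowest library. Against the library without MNase, the 2 purifications thus point in different directions at these stops, a difference that was not tested.

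Gained stops between 1908 and 1930 were shared in part with the other fusions. At 1908 itself the single nucleotide had 7.57% with MNase-rpL5, 3.58% with MNase-rpL27, 2.63% with MNase-rpL35 and 2.95% for no MNase, so only MNase-rpL5 was well above the library without nuclease. Around nucleotides 1908 to 1912 (1908 is at 453274), the window centred on 1912 had 12.4% with MNase-rpL5, 4.14% with MNase-rpL27, 11.4% with MNase-rpL35 and 4.10% for no MNase. MNase-rpL35 was as high as MNase-rpL5 at 1911, where the window had 10.6% with MNase-rpL5 and 0.620% without MNase, and the single nucleotide 6.45% with MNase-rpL5 and 6.18% with MNase-rpL35 but 0.887% with MNase-rpL27 and 0 without MNase. Nucleotide 1930 (453252) had 5.02% with MNase-rpL5, 2.18% with MNase-rpL27, 2.87% with MNase-rpL35 and 0.427% for no MNase, and its noise estimate was 2.25%. The MNase-rpL5 value at 1930 was the highest of the 4 and less than 2 times the next fusion, and both other fusions also exceeded 3 times the library without MNase.

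Other gained stops above 3% were also higher with further fusions. Nucleotide 1303 (453879) had 3.68% with MNase-rpL5, 2.36% with MNase-rpL27, 3.09% with MNase-rpL35 and 0.559% for no MNase, and in 25S-preLSUs 4.66% with MNase-rpL5 against 0.709% without MNase. Nucleotide 1797 (453385) had 3.42% with MNase-rpL5, 5.05% with MNase-rpL27, 3.92% with MNase-rpL35 and 0.794% for no MNase. These are sites where all 3 fusions exceeded the library without MNase. At nucleotide 555 (454627) MNase-rpL5 had 6.12%, MNase-rpL35 4.29% and no MNase 2.00%, while MNase-rpL27 is listed at 0. The noise estimate there was 2.54%.

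Of the 14 weaker stops, 4 lie within 10 nucleotides of a stop that needs no MNase. The highest of them, at 2137 (453045), had 23.3% with MNase-rpL5, 3.12% with MNase-rpL27, 22.2% with MNase-rpL35 and 5.71% for no MNase, on the shoulder of m1A2142, where the noise estimate was 3.93%. The gained stop at nucleotide 3 of 25S rRNA was called from the window centred on 4. That window had 9.87% with MNase-rpL5, 3.31% with MNase-rpL27, 7.76% with MNase-rpL35 and 3.29% for no MNase. Nucleotide 3 itself lies within 2 nucleotides of the 5’ end, so the window overlaps a stop that needs no MNase. The highest window at that end is centred on 3, with 11.1% with MNase-rpL5 and 4.85% without MNase. In 25S-preLSUs the window centred on 4 had 42.3%, 42.2% and 54.9% with MNase-rpL5, MNase-rpL27 and MNase-rpL35, against 49.3% without MNase. The stops at 2632 and 2643, described above, are the other two. How far the neighbouring stop accounts for these values was not tested. The remaining weaker stops, at 1182 and 1814, had 2.44% and 2.64% with MNase-rpL5, against 0.651% and 0.722% without MNase.

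**Figure D3:**
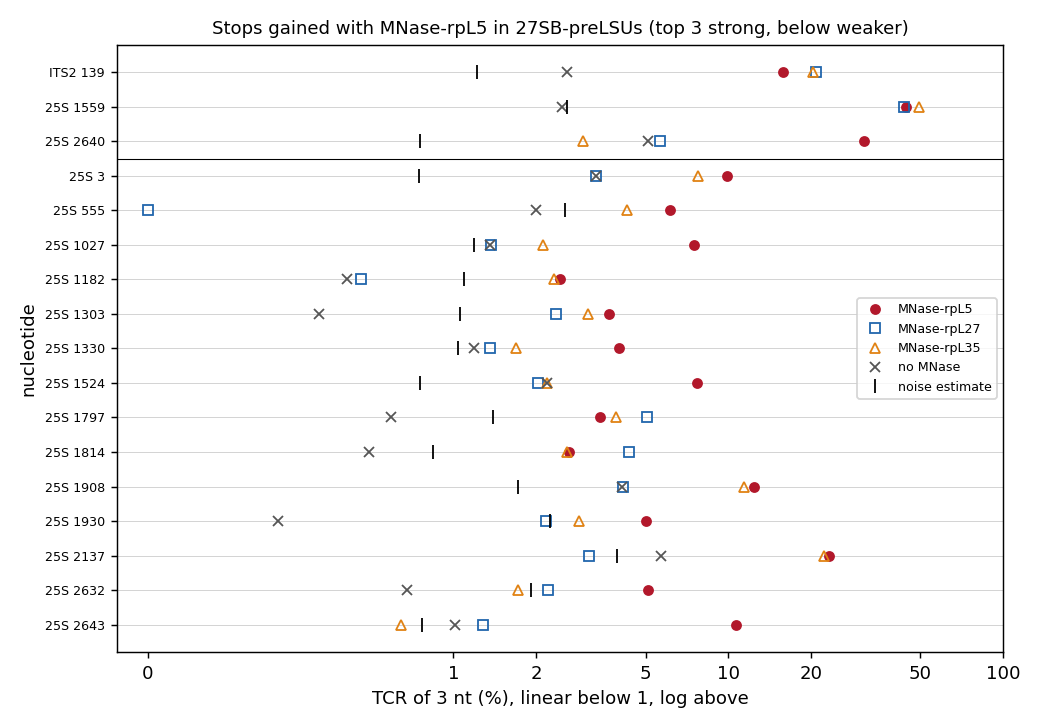
TCR of 3 nucleotides in percent (horizontal axis, linear below 1 and logarithmic above) for MNase-rpL5, MNase-rpL27, MNase-rpL35 and no MNase at the 17 stops gained with MNase-rpL5 (vertical axis), with the noise estimate as a bar. The filled MNase-rpL5 points lie far to the right of all others at 2640 and 2643, and beside those of MNase-rpL35 at 1908 and 2137. The points labelled 1908 are values of the window centred on 1912, which does not include nucleotide 1908.

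The weaker calls depended on the window. When single nucleotides were compared, 1559 and 2640 were found again as strong sites and ITS2 139 as a weaker stop, with 11.04% with MNase-rpL5. Of the 14 weaker stops, 5 were found again as single nucleotides and 9 with 2 nucleotides on either side. Over 12 other settings, 2643, 1027 and 1524 were each found in 11, as was 1559, while 1797, 1814, 2632 and nucleotide 3 were found in 6. The rpL5-preferred stops at 2643, 1027 and 1524 were thus the weaker stops found in the most settings. This count partly restates the rules. Settings that only loosen the criteria find nearly all stops again, and comparison with the other fusions favours stops preferred by MNase-rpL5.

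Sites described for other fusions were mostly at the level without nuclease in the MNase-rpL5 library. Around A80 of 5.8S rRNA MNase-rpL5 had 1.41%, against 86.4% with MNase-rpL35 and 0.877% for no MNase, with a noise estimate of 6.59%. Around A198 of ITS2 it had 5.28%, against 43.8% with MNase-rpL27 and 4.45% without MNase. Around U250 of 25S rRNA it had 2.57%, against 2.69% without MNase, and around U1764 1.19%, against 2.53% without MNase. A89 of ITS2, with 3.09% against 1.31% without MNase, was above the noise estimate of 1.46% but below 3 times the library without MNase. Around U1568 it had 9.77%, against 29.3% with MNase-rpL35 and 7.64% for no MNase. U2068 is listed at 0 in all 4 libraries. A2089, A2540 and U2570 of 25S rRNA had 0.780%, 0.196% and 0.0308% with MNase-rpL5, against 0.573%, 0.161% and 0.0740% without MNase, each below 1%. MNase-rpL27 and MNase-rpL35 were also below 1% at each of them in 27SB-preLSUs, so low values there were not particular to MNase-rpL5.

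The most frequent change was in the other direction. By the mirror of the looser criteria, 40 stops were lost with MNase-rpL5, from 2.93% of the nucleotides examined, against 17 gained. Of the 40, 36 lay in 25S rRNA, 3 in 5.8S rRNA and 1 in ITS2. MNase-rpL35 lost 33 stops, from 2.5% of nucleotides, and MNase-rpL27 lost 8, from 0.293%. In the number of lost stops, MNase-rpL5 was thus close to MNase-rpL35.

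The highest lost stop lay around nucleotides 806 to 808 of 25S rRNA, in domain II (806 is at 454376). The window centred on 807 had 12.96% with MNase-rpL5, 59.03% with MNase-rpL27, 16.6% with MNase-rpL35 and 55.8% for no MNase. Single values of the 3 nucleotides were 4.09%, 3.82% and 5.65% with MNase-rpL5, against 26.1%, 23.96% and 21.4% without MNase. All 3 nucleotides thus had lower values with MNase-rpL5, and the library of MNase-rpL27 stayed at the level without nuclease. G805 and A807, directly 5’ of nucleotides 806 and 808, carry 2’-O-methyl groups.

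The next lost stops in height were 2281, 2348 and 1134. At 1134 (454048) the TCR was 7.88% with MNase-rpL5, 33.98% with MNase-rpL27, 14.6% with MNase-rpL35 and 28.8% for no MNase. At 2281 (452901) it was 7.96% with MNase-rpL5, 34.7% with MNase-rpL27, 11.1% with MNase-rpL35 and 34.1% for no MNase. At 2348 (452834) it was 3.62% with MNase-rpL5, 32.5% with MNase-rpL27, 7.84% with MNase-rpL35 and 29.5% for no MNase. At each of these, MNase-rpL5 was the lowest library and MNase-rpL35 the next, with MNase-rpL27 and no MNase both well above. The same order held at 2338 (452844), with 3.38% with MNase-rpL5 and 18.6% without MNase, at 2946 (452236), with 2.73% against 17.1%, and at 2221 (452961), with 2.94% against 15.4%.

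Lost stops without a listed methyl group beside them were fewer among the highest. At 1571 (453611), in the window centred on 1572, MNase-rpL5 had 6.83%, MNase-rpL27 26.6%, MNase-rpL35 24.8% and no MNase 21.4%, so MNase-rpL5 alone was low. A1571 is a cleavage site of the other fusions in 25S-preLSUs, and its own window in 27SB-preLSUs was 8.01% with MNase-rpL5 and 22.3% without MNase. At 1952 (453230) MNase-rpL5 had 2.84%, MNase-rpL27 8.02%, MNase-rpL35 1.88% and no MNase 16.9%, with a noise estimate of 4.90%. At nucleotide 138 of 5.8S rRNA (455434), in the window centred on 139, MNase-rpL5 had 3.74%, MNase-rpL27 18.9%, MNase-rpL35 1.97% and no MNase 13.2%. At this last stop MNase-rpL5 and MNase-rpL35 were low and MNase-rpL27 and no MNase high. The same held at 2281 and 2348 of 25S rRNA, but not at 1571 or 1952.

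**Figure D4:**
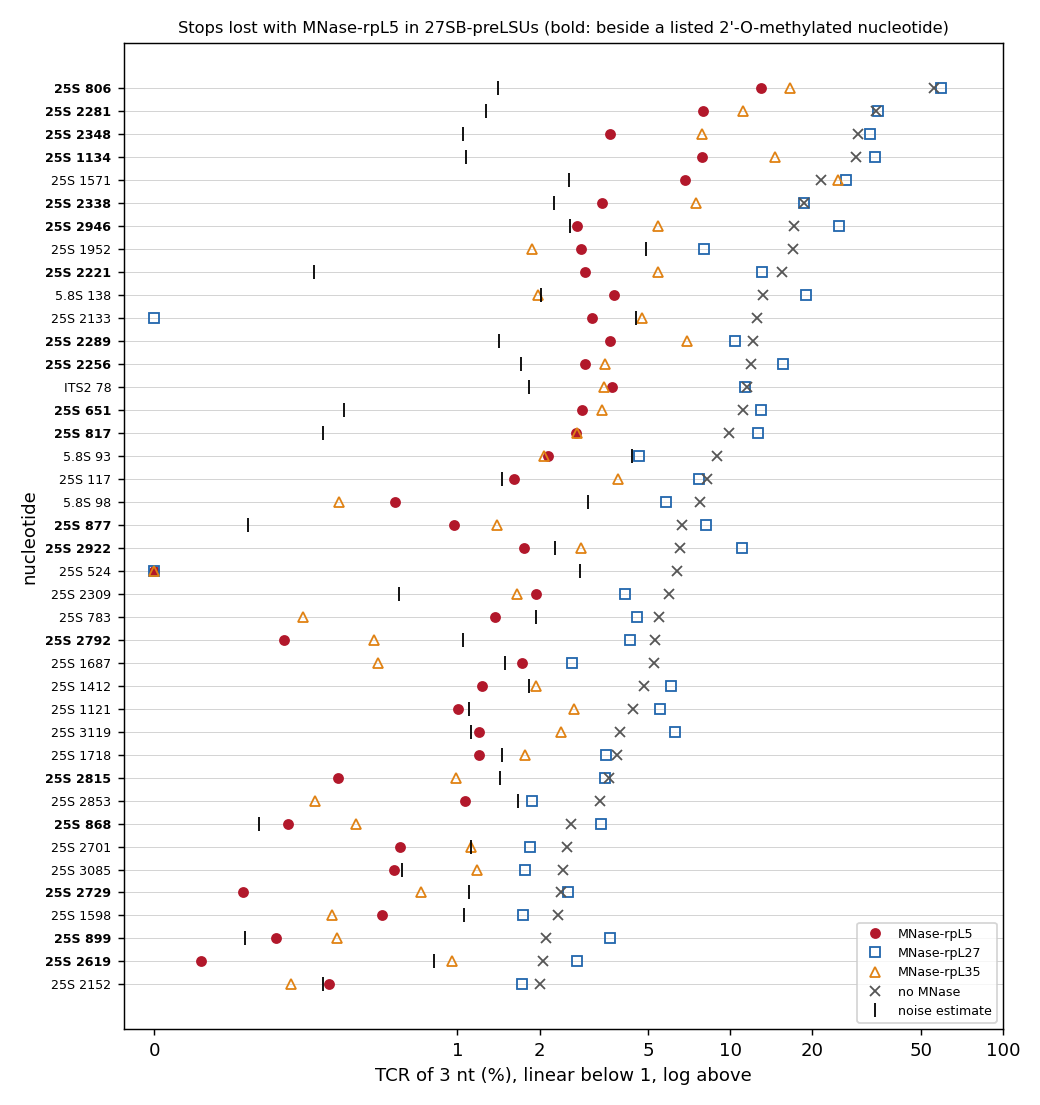
TCR of 3 nucleotides in percent (horizontal axis, linear below 1 and logarithmic above) for MNase-rpL5, MNase-rpL27, MNase-rpL35 and no MNase at the 40 stops lost with MNase-rpL5 (vertical axis, ordered by the value without MNase), bold where a listed 2’-O-methylated nucleotide lies beside the stop. The MNase-rpL5 points lie left of no MNase at every stop by construction, those of MNase-rpL35 at 39, and those of MNase-rpL27 at 20.

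Over the 40 lost stops, MNase-rpL35 was more than 3 times lower than the library without MNase at 24 and lower at 39, while MNase-rpL27 was more than 3 times lower at 2 and lower at 20. The median ratio of no MNase to the fusion was 4.00 with MNase-rpL5, which the rule fixes to be above 3, 3.32 with MNase-rpL35 and 0.989 with MNase-rpL27, over the 38 or 39 stops with values above 0. The same library without MNase enters all 3 ratios.

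Of the 40 lost stops, 19 lay within 1 nucleotide of the 3’ neighbour of a 2’-O-methylated nucleotide, compared with 2.58% of all nucleotides examined and 1 of the 17 gained stops, that at 2640. Among the 15 lost stops of at least 10% without MNase, 10 did. A lost stop must exceed the noise estimate without MNase, so the share over all nucleotides is a low yardstick. Of the 487 nucleotides above noise in both libraries, 56 lay as close to such a nucleotide. The modified nucleotides were taken from a list of 36 well known sites of 25S rRNA, which was written from general knowledge after the values had been seen and may miss others. The nucleotide directly 3’ of the methylated one was lower than without MNase at 35 of the 36 with MNase-rpL5, at 33 with MNase-rpL35 and at 11 with MNase-rpL27. The exception with MNase-rpL5 is the 3’ neighbour of Gm2619, listed at 0 without MNase. Of the 36, 28 were lower with MNase-rpL5 and also above noise without MNase, 26 with MNase-rpL35 and 6 with MNase-rpL27. Over all windows where the fusion and no MNase both exceeded the noise, 53.0% were lower with MNase-rpL5, 73.1% with MNase-rpL35 and 51.7% with MNase-rpL27. The median single nucleotide TCR of the 36 was 0.667% with MNase-rpL5, 3.18% with MNase-rpL27, 0.977% with MNase-rpL35 and 2.78% for no MNase. In 25S-preLSUs the medians at the same 36 were 0.163% with MNase-rpL5 and 0.118% without MNase, so that these stops were low in both libraries of the later particles.

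Examples span the length of 25S rRNA. The 3’ neighbour of Cm650 had 1.20% with MNase-rpL5 and 8.53% without MNase. That of Am876 had 0.445% with MNase-rpL5 and 3.97% without MNase, and that of Am2220 had 2.19% with MNase-rpL5 and 12.3% without MNase. Each was thus lower with MNase-rpL5. The 3’ neighbour of Um2347 had 3.33% with MNase-rpL5, 30.8% with MNase-rpL27, 7.22% with MNase-rpL35 and 27.6% for no MNase. The ratio closest to 1 was at the 3’ neighbour of Gm1450, with 1.31% with MNase-rpL5 against 1.45% without MNase. Library, strain and fusion cannot be told apart in these differences.

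**Figure D5:**
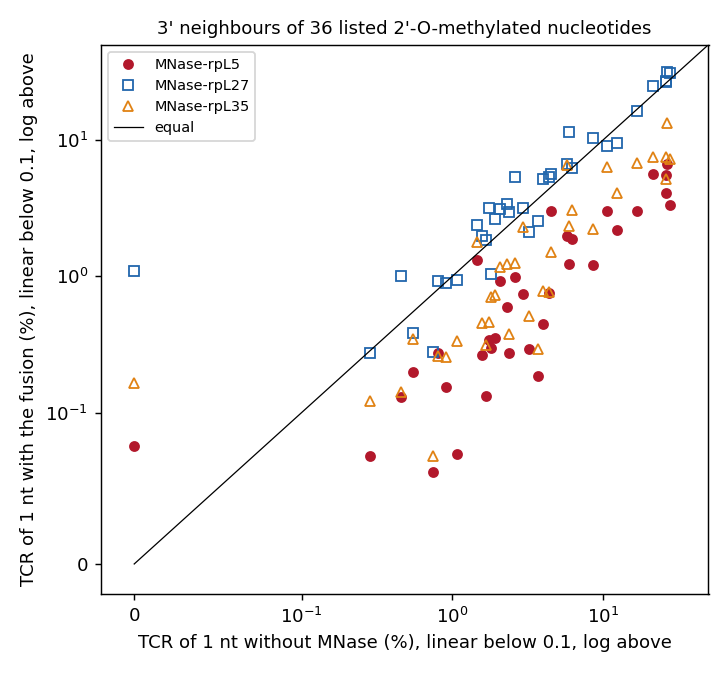
Single nucleotide TCR in percent at the 3’ neighbours of 36 listed 2’-O-methylated nucleotides of 25S rRNA in 27SB-preLSUs, with each fusion (vertical axis) and without MNase (horizontal axis), both axes linear below 0.1 and logarithmic above. Below the line of equal values lie 35 of the MNase-rpL5 points, 33 of the MNase-rpL35 points and 11 of the MNase-rpL27 points.

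Lost stops were not limited to these nucleotides, since 21 of the 40 had no listed nucleotide beside them, among them 1571, 1952 and 138 of 5.8S rRNA. At the 487 nucleotides where both libraries exceeded the noise, the median log2 ratio of MNase-rpL5 to no MNase was -0.05, with quartiles of -0.86 and 0.35. It was -2.04 at the 56 of them beside a listed 2’-O-methylated nucleotide and 0.02 at the other 431, with quartiles of -0.46 and 0.39. With MNase-rpL27 the median log2 ratio was 0.18 beside listed nucleotides and -0.06 elsewhere, and with MNase-rpL35 it was -1.39 and -0.42. The median with MNase-rpL5 was thus shifted beside the listed nucleotides and near 0 elsewhere, where single positions went both ways, whereas with MNase-rpL35 the median elsewhere was lower as well.

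Along 25S rRNA, lost stops were most frequent between nucleotides 2001 and 2400, with 9 lost and 1 gained. The median log2 ratio of MNase-rpL5 to no MNase there was -1.72 over 45 nucleotides above noise in both libraries, of which 38 were lower with MNase-rpL5. The lost stops at 2221, 2256, 2281, 2289, 2338 and 2348 lay beside listed 2’-O-methylated nucleotides, those at 2133, 2152 and 2309 did not. The median of this stretch was not computed without the listed nucleotides. Between 1201 and 2000 lay 8 of the 16 gained stops of 25S rRNA, and 6 were lost. Between 801 and 1200, 2 stops were gained and 7 lost. No stop was gained beyond nucleotide 2800, where 6 were lost. The stretch that contains the rpL5-preferred cuts at 2640 and 2643, from 2401 to 2800, had 3 gained and 4 lost stops.

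The gained stops were only partly found in 25S-preLSUs. With MNase-rpL5, 7 of the 17 exceeded 3 times the library without MNase there too, and 5 of the 7 also exceeded the noise estimate of 25S-preLSUs, namely 1303, 1559, 1814, 2137 and 2632. The 2632 window had 14.5% with MNase-rpL5 and 1.54% without MNase in 25S-preLSUs. It was shared there with MNase-rpL35 (13.6%) and MNase-rpL27 (7.67%). At 1930 the 25S-preLSUs had 2.72% with MNase-rpL5 against 0.590% without MNase, below the noise estimate of 3.06%, and at 1797 1.18% against 0.210%, below 1.23%. The rpL5-preferred stops at 2640, 2643, 1027, 1330 and 1524 were not among the 7. The share of all nucleotides over 3 times no MNase in 25S-preLSUs was not computed. Whether 7 of 17 is more or less than at other nucleotides is therefore unknown. The difference between the purifications was not tested.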

How the data were processed

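Random primer extension libraries of 27SB-preLSUs were compared between MNase-rpL5 and no MNase, with MNase-rpL27, MNase-rpL35 and 25S-preLSUs for reference. The authors mapped paired reads to the rDNA region with Bowtie2 (R64 and sacCer3 per the submitters' processing notes, its version being not given in the sources used here), took an equal number of mapped reads from each dataset and corrected for amplification with random barcodes. The deposited values are, for each nucleotide, the fraction of the unique cDNA fragments reaching it that terminate at it (TCR) and a noise estimate, also as a fraction. No coverage is listed.

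For a site, the probability of stopping at any of 3 nucleotides was computed from their single values and given in percent. Passing centres within 2 nucleotides were joined and named by the highest single nucleotide. Positions named are all strong sites, the 12 highest weaker and 10 highest lost stops, the sites of the study and stops that need no MNase. Members, criteria and lists were chosen with earlier results of these data known. The calling was run on stops placed at quiet positions of the profile without MNase. This checks only that the criteria are applied as written, not how often real libraries differ. Python 3.11.15, numpy 2.4.6, pandas 2.3.3 and matplotlib 3.10.9 were used.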

Additional observations from a re-analysis of the deposited data

Results flagged for a closer look

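Outside 5.8S rRNA, ITS2 and 25S rRNA, nucleotide 640 of the 5’ external transcribed spacer (ETS1) had a TCR of 50% with MNase-rpL5, while the other fusions and the library without MNase are listed at 0. It was singled out because it lies in rows that the comparison does not use and exceeds the library without MNase, and its noise estimate was 9.68%. Nucleotide 593 of ETS1 was likewise listed at 50% with MNase-rpL5 and at 0 in the other libraries, with a noise estimate of 18.2%. Coverage is not listed, so the number of fragments behind either value is unknown and may be very small.

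At 3 gained stops of 25S rRNA, MNase-rpL5 was above the library without MNase in 27SB-preLSUs and below it in 25S-preLSUs, by more than the noise estimate each time, and the difference between the purifications was not tested. In 25S-preLSUs, MNase-rpL5 minus no MNase was -7.05 percentage points at nucleotide 3, -4.32 at 1330 and -8.17 at 1524. In 27SB-preLSUs these differences were 6.58, 2.81 and 5.50. At 1524 in 25S-preLSUs, MNase-rpL27 (3.63%) and MNase-rpL35 (3.16%) were lower still than MNase-rpL5. At 1330 MNase-rpL27 (3.41%) and MNase-rpL35 (6.89%) were higher than MNase-rpL5. Nucleotide 3 lies within 2 nucleotides of the 5’ end of 25S rRNA, a stop that needs no MNase.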

How the results depend on the processing

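The number of strong sites was 5 at 2 times the library without MNase, 1 at 10 times and 5 with a minimum of 10%, against 3. At 10 times the library without MNase 4 weaker gained and 5 lost stops were found, against 14 and 40. With a minimum of 5%, 26 stops were lost. At 5 times the noise, 6 weaker stops were gained and 20 lost. Against the mean of MNase-rpL27 and MNase-rpL35, 1 strong site and 8 weaker stops were found, and MNase-rpL5 was the lower side at ITS2 139 (-4.80 percentage points), 1559 (-2.18) and 1797 (-1.07). The highest site, 1559, had 40.3% as a single nucleotide. The count of strong, weaker and lost stops stayed within 1.5 times under the other settings, but at a distance of 5 nucleotides from stops that need no MNase the site at 2640 was no longer strong, and at 10 nucleotides, which gave 2, 10 and 37, neither 2640 nor 2643 was called. Without positions within 1 nucleotide of the 3’ neighbours of listed 2’-O-methylated nucleotides 31 lost stops were left, since windows beside them still passed, and without those within 3 nucleotides 22 were left. The distances of 10, 1 and 3 nucleotides were chosen after seeing the data. With other windows, all 25 named stops kept their direction. No paired analysis was possible because each condition is 1 library. Without coverage, values near the noise estimate cannot be told from counting error.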
